A study of Mus musculus with 2 samples.

Results

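The TNF superfamily was followed as 42 genes out of the 32285 in both matrices. They were all rows whose symbol starts with Tnfsf or Tnfrsf, plus Tnf, Lta, Ltb, Ltbr, Fas, Fasl, Cd27, Cd40, Cd40lg and Cd70. Of these, 17 are ligands, 24 are receptors and 1, Tnfsf13os, is a transcript antisense to Tnfsf13. TNF family ligands are mostly trimeric proteins of the cell surface that can be shed, and each binds one or a few receptors. Receptors with a death domain, such as Fas and the TNF receptor encoded by Tnfrsf1a, can start cell death, whereas others recruit TRAF adaptors and activate NF-kappaB. In tumors the family carries inflammatory signals of myeloid cells and costimulatory signals between dendritic cells (DCs), T cells and NK cells.

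The cells came from subcutaneous tumors of MC38, a colon carcinoma line, in WT mice. The Control library held cells of untreated tumors, and the IR library cells of tumors that had received 1 localized dose of 20 Gy of ionizing radiation 4 days earlier. Tumors were pooled for each library, so there was 1 library per group: every difference below compares these libraries, has no replicate check and carries no p-value. The protocol describes a sort of live CD45+ cells, while the sample records give CD45+CD11b+Ly6Chi as the cell type, and T cells, NK cells and DCs were all found.

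Many members are neighbours on the genome. With genes no more than 100 kb apart joined, 23 of the 42 fell into 9 clusters on GRCm38. Ltb, Tnf and Lta lay side by side on chromosome 17 from 35194439 to 35205351, a span of 10.9 kb. Tnfrsf4 and Tnfrsf18, the receptors OX40 and GITR, lay on chromosome 4 from 156013843 to 156028895. Tnfrsf26, Tnfrsf22 and Tnfrsf23, relatives of the TRAIL receptor, lay on chromosome 7 from 143607659 to 143685872. Neighbours did not always share a cell type: Ltb and Lta were highest in T cells in both libraries, while Tnf between them was highest in myeloid gates.

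RefSeq promoter windows of GRCm38.p6 covered 31 of the 42 members with 35 windows. The 250 bases before each start were searched on both strands for the kappaB consensus, for the AP-1 letters TGANTCA, and for GAAA followed after any 2 bases by GAAA, a core of interferon response elements. The kappaB consensus was in 4 of the 35 windows and in 7.25% of all 32851 windows, TGANTCA in 6 and in 6.75% of all, and the paired GAAA in 4 and in 2.98% of all. Shown are the windows of Tnf, which rose in the most gates, of its neighbour Ltb, and of the downstream start of Tnfrsf9, one of 2 windows with both kappaB and AP-1 letters, the other being that of Tnfrsf8. Bases run 5′ to 3′ on the strand of the gene and end at the base before the start, and capitals mark matches. The windows were chosen with the values known, and a match describes letters, not a site in use.
Tnf, chr17:35202008-35202257, minus strand: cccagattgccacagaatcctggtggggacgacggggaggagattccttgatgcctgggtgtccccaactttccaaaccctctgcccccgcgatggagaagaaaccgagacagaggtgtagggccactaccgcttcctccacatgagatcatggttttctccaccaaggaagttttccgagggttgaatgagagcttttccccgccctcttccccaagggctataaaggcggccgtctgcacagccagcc
Ltb, chr17:35194257-35194506, plus strand: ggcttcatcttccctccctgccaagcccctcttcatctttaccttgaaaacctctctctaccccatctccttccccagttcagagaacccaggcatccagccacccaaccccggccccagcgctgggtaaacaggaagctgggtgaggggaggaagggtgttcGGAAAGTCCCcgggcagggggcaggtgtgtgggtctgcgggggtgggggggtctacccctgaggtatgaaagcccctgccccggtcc
Tnfrsf9, chr4:150927749-150927998, plus strand: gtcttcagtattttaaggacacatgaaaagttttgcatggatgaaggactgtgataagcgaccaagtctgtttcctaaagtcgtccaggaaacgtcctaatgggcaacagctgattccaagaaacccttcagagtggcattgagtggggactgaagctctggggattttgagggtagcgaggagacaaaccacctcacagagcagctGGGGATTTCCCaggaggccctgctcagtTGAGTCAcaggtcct
The Tnf window held none of the searched letters, the Ltb window held the kappaB consensus at -87 to -78, and the Tnfrsf9 window held overlapping kappaB matches from -43 to -33 and TGANTCA at -15 to -9.

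Barcodes with at least 1000 UMIs (unique molecular identifiers, each marking 1 captured RNA molecule) numbered 4679 in Control and 3410 in IR after quality filters. Marker genes sorted them into gates, and barcodes with markers of 2 lineages (810 and 571) or of none (258 and 174) were left out. Mononuclear phagocytes were divided into monocytes (376 Control and 778 IR barcodes), macrophages (1819 and 377) and barcodes intermediate between them (257 and 264). The other gates held DCs (273 and 251), T cells (439 and 271), NK cells (263 and 384), neutrophils (24 and 162), mast cells or basophils (35 and 67), B cells (20 and 8) and a stromal gate (105 and 103). The stromal gate had matrix genes and little Ptprc, the gene of CD45, but also Krt14 (407 and 337 CPM), so its identity was not resolved. Levels are CPM, the UMIs of a gene per 1000000 UMIs of its gate, and pairs of values are given as Control and IR. Intervals in brackets are exact 95% intervals and cover counting error only, not differences between tumors or libraries. In summed UMIs a different mix of cells inside a gate and a different amount of RNA per cell cannot be told apart.

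Ligand and receptor UMIs shifted from macrophages to monocytes, as all UMIs did. Macrophages held 52.8% of ligand UMIs and 48.0% of receptor UMIs in Control, against 15.5% and 11.5% in IR. Monocytes held 6.03% and 8.65% in Control, against 27.3% and 26.4% in IR. Of the UMIs of all genes, macrophages held 56.0% and 15.5%, and monocytes 7.26% and 26.1%. IR neutrophils held 7.18% of ligand UMIs from 1.95% of all gated UMIs. T cells held 19.6% and 15.6% of ligand UMIs from 8.79% and 9.07% of all.

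**Figure D1:**
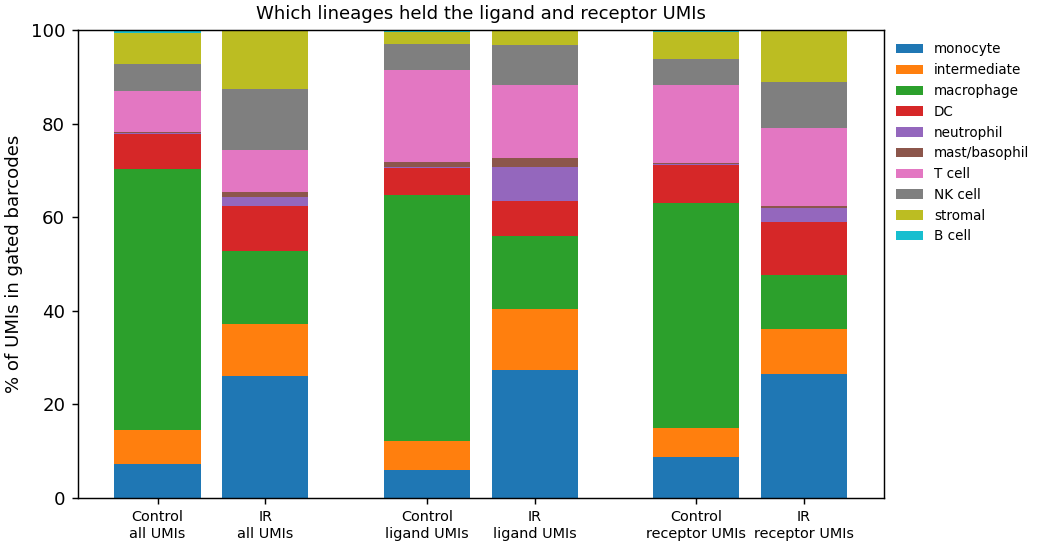
Share of UMIs in gated barcodes (%, vertical axis) held by each gate, for all genes, for the 17 ligands and for the 24 receptors, in the Control and IR libraries. Macrophages gave way to monocytes in all 3 pairs of bars, and neutrophils held 7.18% of ligand UMIs in IR.

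Members had lymphoid, DC, phagocyte or stromal sources. Over the 7 gates with at least 100000 UMIs in both libraries, 33 members had the 40 UMIs in each library needed to name a top gate, and 24 of them had the same one in Control and IR. For 16 of the 24 the top gate stood clear of the next, with intervals that did not overlap, in both libraries. T cells were this clear top for Ltb, Lta, Tnfsf10, Tnfsf11, Tnfrsf4, Tnfrsf18 and Cd27, and DCs for Cd40, Tnfsf4, Cd70 and Tnfrsf11a. Macrophages were it for Tnfsf12 and Tnfsf13b, monocytes for Tnfrsf1a, and the stromal gate for Tnfrsf12a and Tnfrsf22. In IR, where neutrophils had enough UMIs to be ranked, they had the highest levels of Tnf, Tnfrsf1a, Tnfrsf1b, Tnfrsf23, Tnfrsf26 and Fas. For Tnfrsf1a and Tnfrsf26 their intervals overlapped those of the next gate, so these were not clear.

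**Figure D2:**
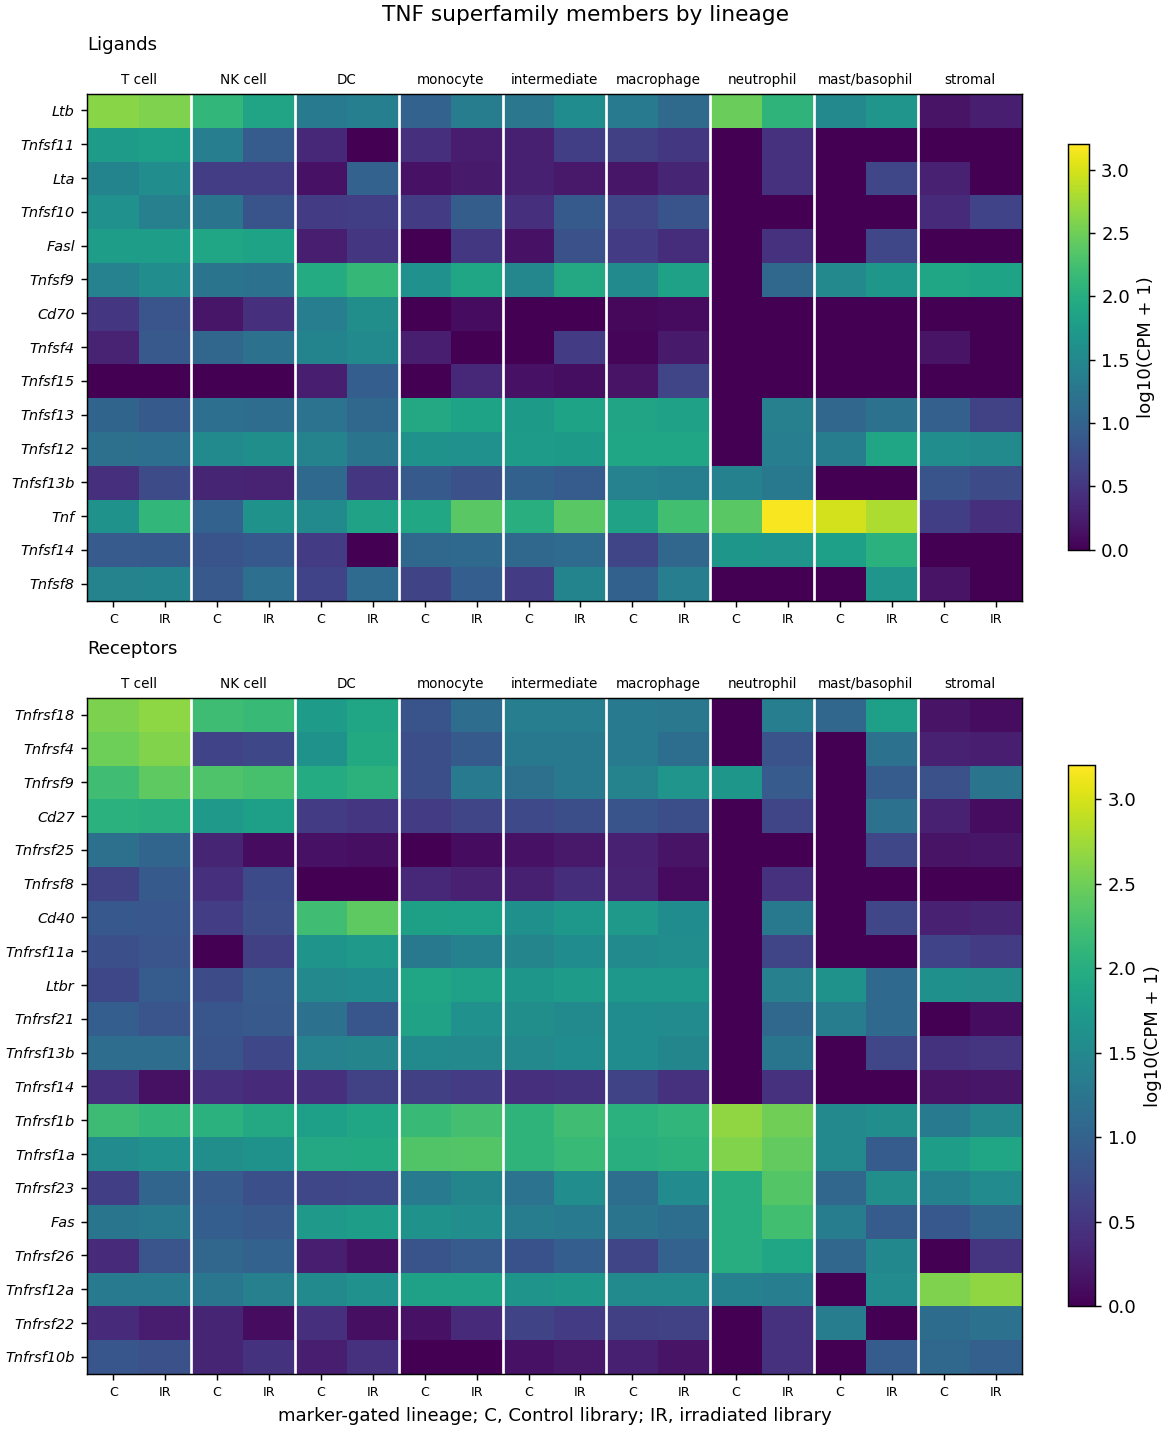
Level (colour, log10 of CPM plus 1) of the 15 ligands and 20 receptors with at least 40 UMIs in 1 or both libraries, by gate (columns, Control then IR). Ltb and Tnfrsf18 are bright in T cells, Cd40 in DCs, Tnf in neutrophils and in mast cells or basophils, and Tnfrsf12a in the stromal gate.

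Across the 6 immune gates with the most UMIs, 33 members had at least 40 UMIs over both libraries in at least 1 gate and could be compared, which gave 131 pairs of a member and a gate. A member was said to rise or fall when its ratio of CPM, IR over Control, was at least 2 or at most 0.5. By that rule 11 members rose in at least 1 gate, in 22 pairs, and 3 fell, in 3 pairs. Tnf rose in all 6 gates and Tnfsf8 in 5. In monocytes 6 of 24 members rose, beside 3.12% of all genes compared, and 0 fell, beside 0.987%. In the intermediate gate 5 of 21 rose (all genes 3.22%) and 0 fell (1.3%), and in macrophages 5 of 29 rose (2.48%) and 0 fell (4.69%). In DCs 3 of 20 rose (1.99%) and 1 fell (2.61%), in T cells 1 of 20 rose (2.39%) and 0 fell (1.29%), and in NK cells 2 of 17 rose (1.93%) and 2 fell (1.31%). The median log2 ratio of the compared members was 0.16 in monocytes, 0.29 in the intermediate gate, 0.01 in macrophages, 0.29 in DCs, 0.01 in T cells and -0.07 in NK cells. For all genes it was -0.04, 0.01, -0.09, -0.02, -0.03 and -0.04.

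**Figure D3:**
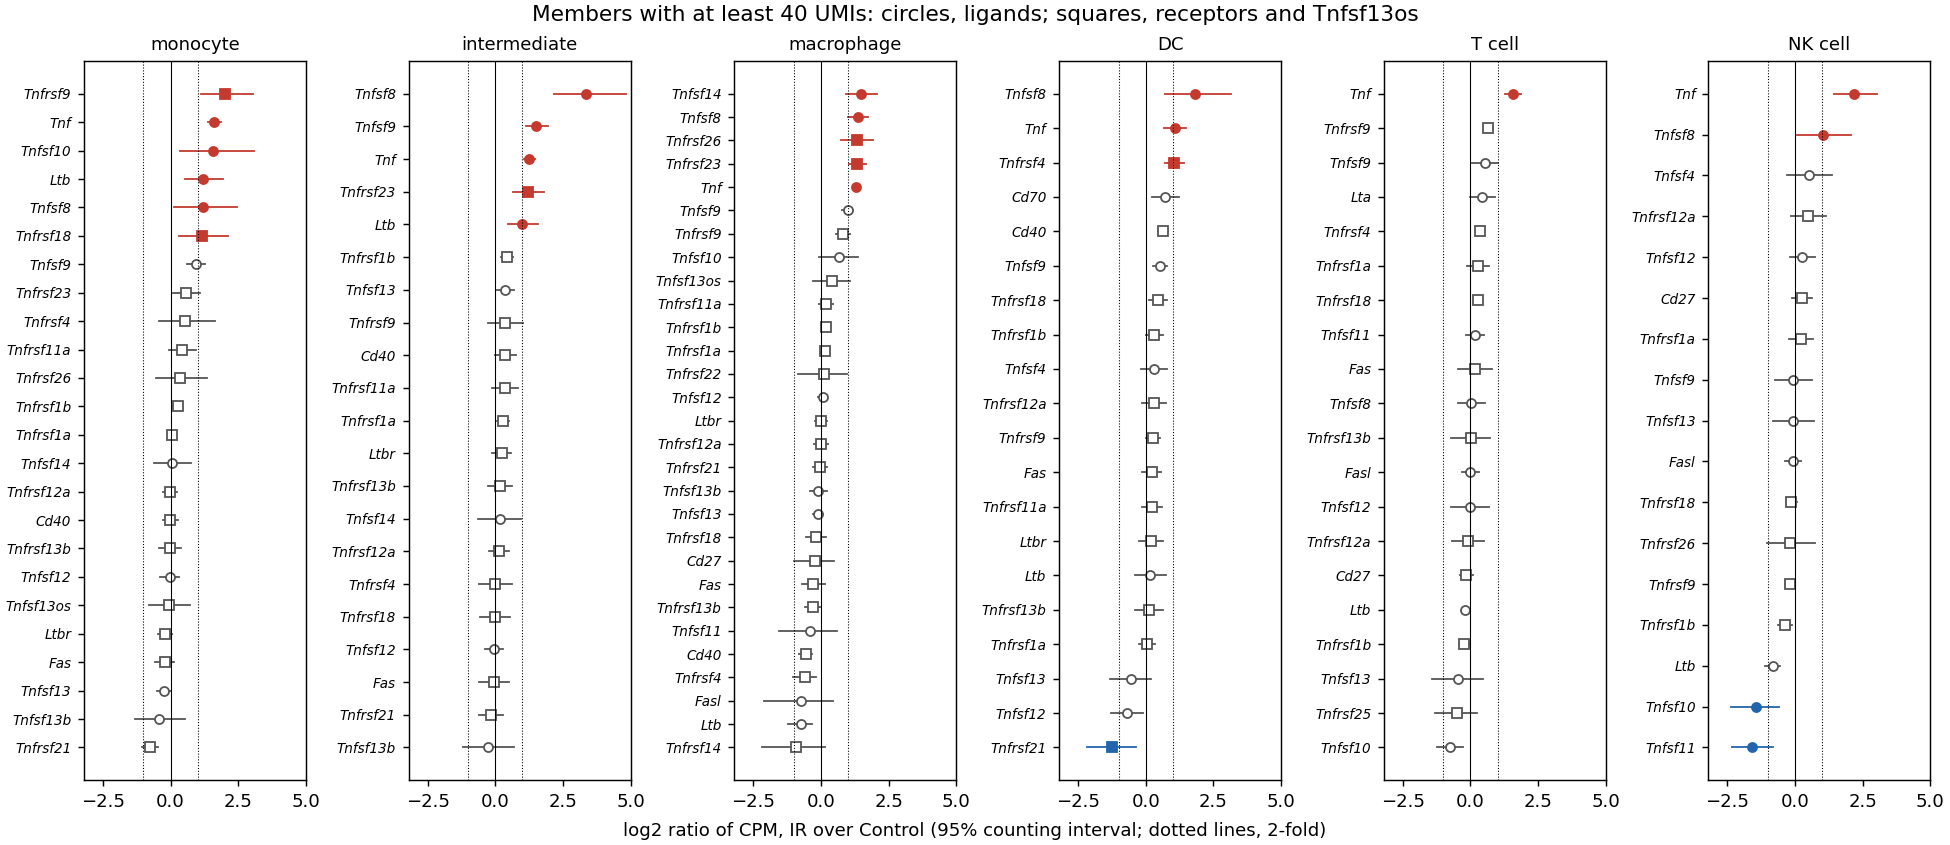
Log2 ratio of CPM, IR over Control, of every member with at least 40 UMIs in each of 6 gates, with 95% counting intervals (circles, ligands; squares, receptors and Tnfsf13os). Filled red and blue symbols are past 2-fold (dotted lines), and Tnf is filled in every panel.

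Tnf, the founding cytokine of the family (ENSMUSG00000024401, chromosome 17 from 35199381 to 35202007), was raised in the most gates. In monocytes it rose from 179 UMIs or 78.6 CPM (67.5 to 90.97) to 1748 UMIs or 241 CPM (229.6 to 252), a ratio of 3.06 (2.63 to 3.59). In the intermediate gate it rose from 101 CPM (88.3 to 115) to 242 CPM (225 to 260.0), and in macrophages from 69.3 CPM (65.5 to 73.3) to 171 CPM (159 to 184). The intervals of the libraries did not overlap in any of these gates, and those of IR monocytes and the IR intermediate gate overlapped each other.

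More phagocytes held a Tnf UMI in IR at equal depth. With each barcode thinned to 2000 UMIs, 28 of 351 Control monocytes (7.98%, 5.37% to 11.3%) and 207 of 745 IR monocytes (27.8%, 24.6% to 31.2%) had at least 1. Without thinning the shares were 21.8% and 50.4%. The thinned shares were 18.4% and 26.4% in the intermediate gate, 12.6% and 20.8% in macrophages and, as a comparison, 2.17% and 3.78% in NK cells. The 2 monocyte barcodes richest in Tnf held 23.5% of its Control UMIs and 6.12% of its IR UMIs, and the ratio without them was 3.75. That trim took a larger share from the smaller Control gate, which raises the ratio. Free RNA, whose upper limit was set from T cell receptor genes in the phagocyte gates and the profile of empty droplets, made up at most 10.3% of Tnf UMIs in any phagocyte gate of either library.

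Neutrophil RNA moved with this result. The 6 neutrophil markers used for gating summed to 109.8 and 319 CPM in the monocyte gate, 91.7 and 356 CPM in the intermediate gate and 42.5 and 244 CPM in macrophages. In IR all 6 had UMIs in each of these gates. Among phagocytes without a UMI of these markers, Tnf was 80.04 and 185 CPM in monocytes (235 and 451 barcodes), 84.6 and 204 CPM in the intermediate gate and 67.2 and 153 CPM in macrophages. The ratios there were 2.31, 2.41 and 2.28, all past 2-fold.

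Neutrophils had the highest Tnf level of the IR library. IR neutrophils had 797 UMIs or 1468 CPM (1368 to 1573), and Control neutrophils 10 UMIs or 243 CPM (116 to 447) from 24 barcodes. Of 7 members compared in neutrophils 2 rose, beside 17.7% of all genes, and 1 fell, beside 9.83%. Those that rose were Tnf and Tnfrsf23 (4 and 118 UMIs), and the one that fell was Ltb (12 and 65 UMIs). The Ltb call rested on 2 Control barcodes, which held 58.3% of its UMIs there, against 9.23% for the 2 richest in IR. Its ratio went from 0.411 to 0.854 without the 2 richest barcodes of each library, an unequal trim that raises the ratio. With scaling by the trimmed mean of M values (TMM) it was 0.577. Mast cells or basophils had 959 CPM (773 to 1176) and 635 CPM (543 to 738), a ratio of 0.662, and 2 IR barcodes held 76.3% of the UMIs. Without the 2 richest barcodes of each library they had 653 and 167 CPM, a ratio of 0.255 that is past 2-fold lower, and the IR value lay below that of monocytes on the same footing (227 CPM). Tnf was the 1 member compared there, with 0 risen (all genes 6.88%) and, with every barcode included, 0 fallen (3.06%).

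**Figure D4:**
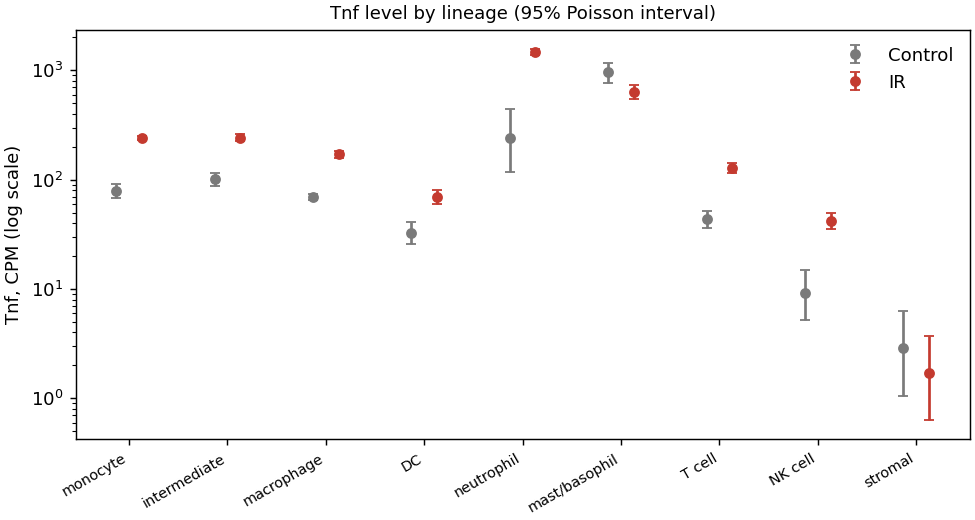
Tnf level (CPM, log scale) in each gate of the Control and IR libraries, with exact 95% Poisson intervals. IR lies above Control in the 3 phagocyte gates, DCs, neutrophils, T cells and NK cells, and below it in mast cells or basophils.

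DCs, T cells and NK cells had lower Tnf levels than phagocytes in the IR library. In DCs it rose from 77 UMIs or 32.8 CPM (25.9 to 41.03) to 188 UMIs or 69.4 CPM (59.8 to 80.03), a ratio of 2.11 that was 1.95 without the 2 barcodes richest in Tnf. Mature DCs, marked by Ccr7 and Fscn1, had 31.7 and 49.9 CPM, and DCs assigned to no subset 49.4 (29.3 to 78.0) and 257 (202 to 323) CPM. The latter were a remainder of 53 and 33 barcodes that may hold subset markers, in too few UMIs or of 2 subsets. In T cells Tnf rose from 120 UMIs or 43.5 CPM (36.1 to 52.03) to 325 UMIs or 129 CPM (115 to 144), a ratio of 2.96. A pair of barcodes held 33.2% of the IR T cell UMIs, and the ratio was 2.13 without them. In NK cells Tnf rose from 16 UMIs or 9.10 CPM (5.20 to 14.8) to 151 UMIs or 41.9 CPM (35.5 to 49.1), a ratio of 4.60.

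Neutrophil RNA moved with the lymphoid result, while a macrophage marker moved the other way. The neutrophil markers summed to 1.81 and 165 CPM in the T cell gate and to 6.82 and 76.8 CPM in the NK cell gate. C1qa was 187 and 54.3 CPM in the T cell gate and 63.7 and 51.8 CPM in the NK cell gate. In T cells with no UMI of C1qa, C1qb, C1qc, Lyz2 or Cd14 (135 and 125 barcodes), Tnf was 32.8 (20.5 to 49.6) and 42.7 (29.4 to 59.9) CPM. In such NK cells (71 and 214 barcodes) it was 7.87 (1.62 to 22.99) and 13.4 (8.41 to 20.3) CPM (3 and 22 UMIs), and both pairs of intervals overlapped. Free RNA made up at most 15.05% of Tnf UMIs in T cells and 27.2% in NK cells. Within all T cells, the CD8 sub-gate had 38.5 (29.5 to 49.5) and 153 (133 to 175) CPM, and CD4 cells without Foxp3 61.03 and 182 CPM. T cells placed in no sub-gate, which include any barcodes with genes of 2 sub-gates, had 51.4 and 52.9 CPM. These sub-gates kept the 2 IR T cell barcodes richest in Tnf, with 56 and 52 UMIs, and were not recomputed without them. The higher CD8 level in IR may thus rest in part on these barcodes.

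The receptors of TNF did not pass 2-fold in any of the 6 gates. Tnfrsf1a, the death domain receptor TNFR1, was 214 and 222 CPM in monocytes, 120.3 and 147 in the intermediate gate, 102 and 112 in macrophages, 83.99 and 86.7 in DCs, 33.7 and 40.8 in T cells and 36.9 and 43.3 in NK cells. Tnfrsf1b, the receptor TNFR2 of leukocytes, was 147 and 175 CPM in monocytes, 121 and 164 in the intermediate gate, 110.4 and 125 in macrophages, 62.2 and 77.5 in DCs, 155 and 132 in T cells and 109 and 84.01 in NK cells. The ratios ran from 1.03 to 1.22 for Tnfrsf1a and from 0.774 to 1.35 for Tnfrsf1b.

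Tnfsf8, the CD30 ligand, rose in every compared gate but T cells. In the intermediate gate it rose from 6 UMIs or 2.68 CPM (0.985 to 5.84) to 84 UMIs or 27.2 CPM (21.7 to 33.7), a ratio of 10.1 (4.46 to 28.4), and 2.33% and 17.05% of its barcodes held a UMI before thinning. In macrophages it rose from 155 UMIs or 8.83 CPM (7.49 to 10.3) to 98 UMIs or 22.7 CPM (18.4 to 27.6), and without neutrophil marker UMIs the ratio there was 2.65. The rises in monocytes (8 and 58 UMIs) and NK cells (12 and 50 UMIs) had levels with overlapping intervals, and in DCs (8 and 33 UMIs) 2 IR barcodes held 48.5% of the UMIs. T cells, the clear top gate in Control, had 26.1 and 26.5 CPM, and those without myeloid UMIs 41.7 and 15.5 CPM (28 and 12 UMIs), which is past 2-fold in the other direction. Its receptor Tnfrsf8, CD30, had 39 and 47 UMIs over all gates.

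Tnfsf9, the 4-1BB ligand, rose in the intermediate gate from 65 UMIs or 29.1 CPM (22.4 to 37.1) to 257 UMIs or 83.2 CPM (73.3 to 93.97), a ratio of 2.86. It lay just below the 2-fold line in macrophages (33.4 and 66.4 CPM, ratio 1.99, or 2.05 with TMM scaling) and in monocytes (40.4 and 76.9 CPM, ratio 1.90). DCs were its top gate, with 92.9 CPM (81.01 to 106) and 133 CPM (119.8 to 148). The stromal gate, with 74.3 and 70.1 CPM, was not clear of DCs in Control.

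Tnfrsf9, the costimulatory receptor 4-1BB that binds Tnfsf9, was highest in lymphocytes. T cells had 162 CPM (148 to 178) and 257 CPM (237 to 277), a ratio of 1.58, and NK cells 208 CPM (187 to 231) and 184 CPM (169.8 to 198). In Control 2 NK barcodes held 28.96% of the NK UMIs. Without the 2 richest barcodes of each library NK cells had 151 and 169 CPM, a ratio that turned from 0.882 to 1.12, and T cells 155 and 237 CPM. T cells without myeloid UMIs had 216 and 361 CPM, and such NK cells 136 and 191 CPM. CD8 T cells had 102 and 197 CPM, a ratio of 1.93, and T cells with Foxp3, the factor of regulatory T cells, 614 and 631 CPM. Tnfrsf9 was 92.5 and 112 CPM in DCs, 26.03 and 45.6 in macrophages and 14.3 and 18.4 in the intermediate gate. Free RNA made up at most 40.6% and 19.1% of its UMIs in macrophages and 66.9% and 100% in the intermediate gate. In monocytes Tnfrsf9 rose from 11 to 140 UMIs (4.83 and 19.3 CPM), where free RNA made up at most 65.6% and 46.6% of the UMIs. In the stromal gate it rose from 11 to 56 UMIs (5.27 and 16.02 CPM), as 1 of 11 compared members (all genes 1.96%), while 0 fell (1.68%).

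OX40, GITR and CD27 are costimulatory receptors of T cells, and T cells were their top gate. Tnfrsf4 (OX40) was 311 CPM (290.3 to 332) and 397 CPM (373 to 422) there, Tnfrsf18 (GITR) 375 CPM (352 to 398) and 450.4 CPM (425 to 477), and Cd27 111 and 99.8 CPM. In the Foxp3 sub-gate (43 and 17 barcodes) Tnfrsf4 was 1648 (1475 to 1835) and 2194 (1958 to 2451) CPM. CD4 cells without Foxp3 had 773 and 819 CPM of it, and CD8 cells 126 and 213 CPM. Of the Tnfrsf4 UMIs of all IR T cells, 2 barcodes held 16.8% (95 and 73 UMIs). The sub-gates were not recomputed without them. Tnfrsf18 was 1398 and 1227 CPM in Foxp3 cells, 865 and 815 in CD4 cells without Foxp3 and 219.8 and 385 in CD8 cells. The Foxp3 cells thus stood above CD8 cells for both receptors in both libraries.

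NK cells had Tnfrsf18 at 159.7 and 146 CPM and Cd27 at 52.9 and 62.9 CPM, and Tnfrsf4 there had 6 and 14 UMIs. In phagocyte gates Tnfrsf4 lay at 4.83 to 19.9 CPM and Cd27 at 2.63 to 5.70 CPM. Free RNA made up at most 66.6% to 100% of these UMIs for Tnfrsf4 and 30.8% to 88.4% for Cd27, depending on gate and library. Tnfrsf18 rose in monocytes, with 13 and 93 UMIs, of which free RNA made up at most 58.8% and 83.7%. Its log2 ratio there was 1.17, which became -0.14 with free RNA subtracted.

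**Figure D5:**
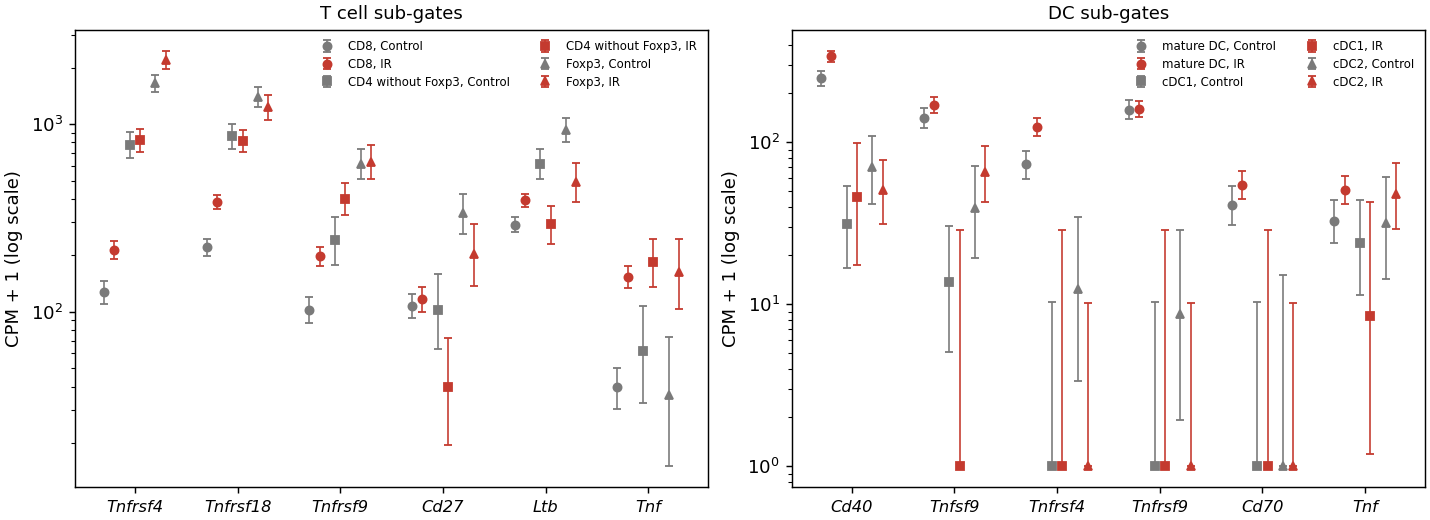
CPM plus 1 (log scale, 95% Poisson intervals) of selected members in T cell sub-gates (CD8, CD4 without Foxp3, Foxp3) and DC sub-gates (mature DC, cDC1, cDC2), Control in grey and IR in red. Tnfrsf4 and Tnfrsf18 are highest in Foxp3 cells, and Cd40, Tnfsf9, Tnfrsf4 and Tnfrsf9 are highest in mature DCs.

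DCs carried partners of these costimulatory pairs. Cd40, the receptor through which helper T cells license DCs, was 164 CPM (148 to 181) and 257 CPM (238 to 277) in DCs, a ratio of 1.56. Mature DCs, 149 of 273 Control and 170 of 251 IR barcodes, had 247 (221 to 275) and 337 (311 to 364) CPM, a ratio of 1.36. Cd40 was 64.5 and 63.6 CPM in monocytes, 39.4 and 50.5 in the intermediate gate and 51.4 and 34.7 in macrophages, the last a ratio of 0.675. Cd70, the ligand of CD27, was 22.6 and 37.3 CPM in DCs, which held 84.1% and 80.8% of its gated UMIs. Tnfsf4, the OX40 ligand, was 26.9 and 33.2 CPM in DCs and 10.2 and 14.7 in NK cells.

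Tnfrsf4 rose in DCs from 98 UMIs or 41.8 CPM (33.9 to 50.9) to 234 UMIs or 86.3 CPM (75.6 to 98.1), a ratio of 2.07. In mature DCs it was 71.8 (58.1 to 87.8) and 124 (108 to 141) CPM, a ratio of 1.72, which is under 2-fold. Free RNA made up at most 31.4% and 16.8% of its DC UMIs. Tnfrsf21, the death receptor DR6, fell in DCs from 35 UMIs or 14.9 CPM (10.4 to 20.8) to 17 UMIs or 6.27 CPM (3.65 to 10.04), a ratio of 0.420 (0.221 to 0.771). Tnfrsf21 was 69.4 CPM (58.97 to 81.1) and 40.9 CPM (36.4 to 45.8) in monocytes, its top gate.

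The lymphotoxins were highest in T cells in both libraries. Ltb, the membrane subunit of the lymphotoxin heterotrimer, was 429 CPM (405 to 454) and 376 CPM (352 to 401) in T cells, and 129.6 CPM (113 to 148) and 73.2 CPM (64.6 to 82.6) in NK cells, the latter a ratio of 0.565. CD8 cells had 291 (265 to 318) and 392 (359.9 to 426) CPM, CD4 cells without Foxp3 (47 and 31 barcodes) 615 (511 to 735) and 291 (229 to 365) CPM, and Foxp3 cells 934 (805 to 1078) and 491 (383 to 619.9) CPM. CD8 cells were thus higher in IR and both CD4-lineage sub-gates lower, with intervals that did not overlap. Ltb was 20.5 and 22.9 CPM in DCs and 19.9 and 11.8 in macrophages, where the ratio was 0.592. Free RNA made up at most 64.9% and 45.9% of its UMIs in DCs and 70.2% and 57.0% in macrophages. The macrophage ratio was 0.446 without the 2 richest barcodes of each library, but these held 5.43% of Control and 29.4% of IR UMIs. Over the processing alternatives the macrophage log2 ratio of Ltb ran from -1.24 to 0.21.

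Ltb rose in monocytes (21 and 153 UMIs) and in the intermediate gate (39 and 108 UMIs), where free RNA made up at most 33.1% to 72.6% of its UMIs. Without neutrophil marker UMIs the ratios there were 1.36 and 1.33. Lta, the secreted subunit, was 26.5 and 35.6 CPM in T cells, and the shared receptor Ltbr 78.1 and 67.5 CPM in monocytes.

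Tnfsf10, which encodes the death ligand TRAIL, changed in opposite directions by gate. In NK cells it fell from 28 UMIs or 15.9 CPM (10.6 to 23.0) to 21 UMIs or 5.82 CPM (3.60 to 8.90), a ratio of 0.366. T cells, its top gate, had 40.3 CPM (33.1 to 48.5) and 23.8 CPM (18.1 to 30.6), a ratio of 0.590. In monocytes it rose from 6 UMIs or 2.63 CPM (0.967 to 5.73) to 57 UMIs or 7.85 CPM (5.95 to 10.2), a ratio of 2.98 (1.29 to 8.46). It was 3.65 and 5.79 CPM in macrophages, and the intermediate gate and DCs had under 40 UMIs. Its receptor Tnfrsf10b, DR5, had 62 UMIs over all gates in each library and was highest in the stromal gate, with 11.02 and 8.58 CPM.

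Tnfsf11, the RANK ligand, fell in NK cells from 39 UMIs or 22.2 CPM (15.8 to 30.3) to 27 UMIs or 7.49 CPM (4.93 to 10.9), a ratio of 0.338. Among NK cells without myeloid UMIs it was 49.8 and 6.71 CPM (19 and 11 UMIs). T cells had 56.9 and 63.8 CPM, and CD4 cells without Foxp3 249 and 206 CPM. Its receptor Tnfrsf11a, RANK, was 44.3 and 51.7 CPM in DCs.

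Fas, compared in 5 of the 6 gates, and its ligand, compared in 3, did not pass 2-fold in any of them. Fasl, made by cytotoxic lymphocytes, was 60.2 and 60.2 CPM in T cells and 74.5 and 70.98 CPM in NK cells. Fas was 51.2 and 59.8 CPM in DCs, 42.6 and 36.5 in monocytes, 21.5 and 20.7 in the intermediate gate, 16.01 and 13.2 in macrophages and 16.7 and 18.6 in T cells, with 14 and 25 UMIs in NK cells.

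The B cell factors, TWEAK and their receptors did not pass 2-fold in these gates either. Tnfsf13b (BAFF), a B cell survival factor, was 25.01 and 23.4 CPM and Tnfsf12 (TWEAK) 74.9 and 78.02 CPM in macrophages, their top gate. Tnfsf13 (APRIL) was 83.4 and 70.1 CPM and Tnfsf13os 9.22 and 8.82 CPM in monocytes, and reads of these overlapping or adjoining genes may be hard to assign. Tnfrsf13b, the BAFF and APRIL receptor TACI, was 34.9 and 28.2 CPM in macrophages. Its highest Control level was in the small B cell gate, at 122 CPM (79.1 to 181) from 25 UMIs, and IR B cells had 4 UMIs. Tnfrsf12a, the TWEAK receptor, was 381 CPM (355 to 408) and 469 CPM (446 to 492) in the stromal gate, against 66.7 and 65.8 CPM in monocytes.

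In macrophages 3 further members rose. Tnfsf14 (LIGHT), a ligand of the lymphotoxin receptor, rose from 65 UMIs or 3.70 CPM (2.86 to 4.72) to 45 UMIs or 10.4 CPM (7.60 to 13.9). Tnfrsf23, a decoy TRAIL receptor, rose from 236 UMIs or 13.4 CPM to 147 UMIs or 34.03 CPM, a ratio of 2.53 (2.05 to 3.12), and its neighbour Tnfrsf26 from 64 UMIs or 3.65 CPM (2.81 to 4.66) to 40 UMIs or 9.26 CPM (6.62 to 12.6). Tnfrsf23 rose in the intermediate gate as well (15.7 and 36.6 CPM) and was 19.3 and 28.8 CPM in monocytes. IR neutrophils had 217 CPM of Tnfrsf23 and 75.5 CPM of Tnfrsf26. Without neutrophil marker UMIs the ratio of Tnfrsf23 was 2.02 in macrophages and 1.92 in the intermediate gate. The remaining gene of the cluster, Tnfrsf22, another decoy TRAIL receptor, was 12.5 and 14.9 CPM in the stromal gate and 3.02 and 3.24 CPM in macrophages, and these related genes may share reads.

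The remaining members were sparse. Tnfsf18, the GITR ligand, had 0 UMIs in gated barcodes of both libraries. Tnfrsf19, Tnfrsf11b, Tnfrsf13c, Tnfrsf17 and Cd40lg stayed under 40 UMIs in each library, with 28 and 15 for Cd40lg, the CD40 ligand of helper T cells. With Tnfsf15, Tnfrsf8 and Tnfrsf10b these made the 9 members that reached 40 UMIs in none of the 6 gates. Tnfrsf14 (3.47 and 1.85 CPM in macrophages) and Tnfrsf25 (14.1 and 9.90 CPM in T cells) were compared in those gates and did not pass 2-fold.

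Signalling genes of the pathway passed 2-fold most often in monocytes. Of a list of 30 adaptors, kinases, caspases, ubiquitin regulators and sheddases, all 30 could be compared in monocytes, where 4 rose (13.3%, beside 3.12% of all genes) and 0 fell (0.987%). These were Traf1, an adaptor of TNFR2 (66.3 to 155 CPM), Mlkl, the executioner of necroptosis (14.5 to 29.9 CPM), Fadd, the death domain adaptor (3 to 53 UMIs), and Rnf31, part of the linear ubiquitin ligase (8.78 to 18.2 CPM). In the intermediate gate 1 of 29 rose (3.45%, beside 3.22%), Traf1 (59.9 to 120.4 CPM), and in T cells 1 of 28 (3.57%, beside 2.39%), Mlkl (14 to 28 UMIs), while 0 fell in either. Both shares lay near those of all genes. Of 30 in macrophages, 28 in DCs and 29 in NK cells 0 passed 2-fold in either direction. The list's median log2 ratio was 0.04 in monocytes, 0.32 in the intermediate gate and 0.01 in macrophages, against -0.04, 0.01 and -0.09 for all genes.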

How the data were processed

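Raw UMI counts per gene and droplet were deposited by the authors as 1 unfiltered matrix for each library, from 10x Chromium 3' v3.1 libraries aligned to mm10. The processing notes name Cell Ranger 6.0.1, while the matrix headers name Cell Ranger 4. Depth was 48593879 UMIs in Control and 42406461 in IR.

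Barcodes with at least 1000 UMIs, at least 200 genes and at most 25% mitochondrial UMIs were kept. Of the barcodes with at least 1000 UMIs, 7 sequences occurred in both libraries. Each barcode went to the lineage whose marker UMIs per 10000 stood highest over a threshold, with at least 3 marker UMIs and at least 2 times the score of every other lineage. Phagocytes with at least 2 times more monocyte than macrophage marker signal were called monocytes, the converse macrophages, and the rest intermediate. Thresholds were set after seeing the data, and Hdc and Mmp9 were left out of the neutrophil score after barcodes with only these genes had made up most of the Control gate. The study removed doublets with DoubletFinder. Here barcodes with markers of 2 lineages were left out, and removing the 6% with the highest Scrublet scores (scanpy 1.11.5) was an alternative.

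UMIs were summed per gate and library, with exact Poisson, conditional (ratios) and Clopper-Pearson (shares) intervals from scipy 1.17.1. A gene was compared with at least 40 UMIs over both libraries and called at 2-fold. No p-values were computed, since each group had 1 library. Named with values were called members, members with the same top gate in both libraries, and Tnf, Tnfrsf1a, Tnfrsf1b, Fas, Tnfsf10, Tnfrsf9, Tnfrsf4, Cd27, Cd40 and Ltb whatever their values, with sub-gates and other members added as context after their values were seen. Of the pathway list, only called genes were named. Members and lists were chosen with earlier results of these data known. The free RNA limit of a gate came from its UMIs of C1q genes (T cell receptor genes in phagocytes) relative to droplets with 10 to 100 UMIs. Gene positions are GENCODE vM21 on GRCm38. Alternatives changed depth and mitochondrial limits, gating, doublets, free RNA, scaling (edgeR 4.0.16, R 4.3.3), pseudocount and call rule. The shortened neutrophil list, and the lymphocytes and phagocytes without myeloid or neutrophil UMIs, were chosen after seeing the data.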

Additional observations from a re-analysis of the deposited data

Results flagged for a closer look

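Tnfsf10 moved in opposite directions in different gates. Its log2 ratio, IR over Control, was 1.58 in monocytes (6 and 57 UMIs) and -1.45 in NK cells (28 and 21 UMIs), and the difference between the gates was not tested.

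Droplets with 10 to 100 UMIs, which hold free RNA and belong to no comparison above, had at least 2 times the Control level of 4 members in IR, among members with at least 40 UMIs in these droplets over both libraries. Tnf was 123 CPM in IR and 55.8 CPM in Control, and Tnfrsf18 was 178 CPM and 87.3 CPM. Tnfrsf23 was 12.3 CPM and 5.32 CPM, and Tnfsf4 was 10.98 CPM and 4.63 CPM. The share of all genes past 2-fold in these droplets was not computed, so the count cannot be read as particular to the members.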

How the results depend on the processing

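No paired analysis was possible because each group consisted of 1 library. Tnf kept its direction in all 6 gates under each alternative run, with log2 ratios of 1.06 to 1.85 in monocytes, 1.01 to 1.53 in the intermediate gate, 1.19 to 1.59 in macrophages, 0.89 to 1.16 in DCs, 0.38 to 1.63 in T cells and 0.77 to 2.74 in NK cells. Of the counts of members risen or fallen, taken with those of members sharing a top gate in both libraries, 172 stayed within 1.5 times and 44 did not. The causes were not tested except where the rule itself changed. The share of all genes was not recomputed under the alternatives. The counts below thus show how the calls depend on the processing, not how members compare with other genes. With 10 added to each CPM, which shrinks low genes, the number that rose was 1 in monocytes, 3 in the intermediate gate, 1 in macrophages, 0 in DCs, 1 in NK cells and 7 over the 6 gates together, and 0 fell in DCs, in NK cells and together. Calling at 1.5-fold gave 8 risen in macrophages, 5 in DCs and 2 in T cells, and 1 fallen in monocytes, 4 in macrophages, 2 in DCs, 1 in T cells and 11 together. With at least 20 UMIs per gene 5 rose in DCs and 5 in T cells, and 1 fell in macrophages, 2 in DCs and 5 together. With at least 100 UMIs 1 rose in NK cells, and 0 fell in DCs, in NK cells and together. Leaving out the highest Scrublet scores gave 3 risen in monocytes, 1 in DCs and 1 in NK cells, and at most 10% mitochondrial UMIs 1 in DCs. Gating on 1000 UMIs per barcode gave 2 risen in T cells, and 1 risen and 1 fallen in NK cells. Requiring 2 times the marker minimum left 1 fallen in macrophages and 0 in NK cells, and subtracting free RNA gave 8 risen in macrophages. Phagocytes without neutrophil marker UMIs had 3 risen in monocytes, 2 risen and 1 fallen in the intermediate gate and 3 fallen in macrophages. Lymphocytes without myeloid UMIs had 0 risen and 1 fallen in T cells, and 0 risen and 0 fallen in NK cells. Among called members 3 values changed sign: the log2 ratio of Tnfrsf18 in monocytes was -0.21 with gating on 1000 UMIs and -0.14 with free RNA subtracted, and that of Ltb in the intermediate gate was -0.0051 with gating on 1000 UMIs. Of the 39 named values that were not called, 17 took both signs over the alternatives, among them Tnfrsf9 in NK cells (-0.26 to 0.49), Tnfrsf4 in monocytes (-0.18 to 1.06) and Ltb in DCs (-0.48 to 0.73) on the log2 scale. In all, over the alternatives, 54 values of single members moved beyond their counting interval. Another alternative, chosen after seeing the data, left out the 2 barcodes of each library richest in the member. Tnf in DCs then went under 2-fold, and Ltb, Tnfrsf4, Tnfrsf14 and Tnfsf11 in macrophages went past it. Their macrophage ratios were 0.446, 0.479, 0.424 and 0.107. That trim weighs more on 377 IR than on 1819 Control macrophages, and so lowers these ratios. It removed 29.4% of IR and 5.43% of Control UMIs for Ltb, and 35.1% and 10.03% for Tnfrsf4. For Tnfrsf14 it removed 25% and 4.92%, and for Tnfsf11 90% and 29.6%. These ratios thus cannot be read as falls. In neutrophils, TMM scaling moved ratios by 0.49 on the log2 scale, and their 24 Control barcodes limit every value there. Tnfrsf26 and Fas went past 2-fold there without the 2 richest barcodes of each library. These barcodes held 75% of the Control UMIs of each gene, against 12.2% and 10.99% in IR, so the trim itself raised both ratios.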

Other observations

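Barcodes outside the gates held members as well. In those with markers of 2 lineages, Tnf was 56.5 and 232 CPM in Control and IR, and in those that reached no lineage 42.2 and 102 CPM. In the barcodes that reached no lineage Tnfrsf9 was 91.7 and 216 CPM. In neutrophils Casp8, the caspase downstream of death receptors, had 2 Control and 53 IR UMIs. Its levels were 48.6 (5.88 to 175) and 97.6 (73.1 to 128) CPM, a ratio of 2.01 with overlapping intervals. It was the 1 that rose of 7 pathway genes compared there (14.3%, beside 17.7% of all genes), while 0 fell (9.83%).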
